A study of Mus musculus with 8 samples.

Results

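Integrins are the adhesion receptors with which T-cells leave the blood, settle in tissue and hold on to other cells. The 10 genes described here encode the integrin chains that have been tied to the homing of effector Treg (eTreg) cells and to the activation of TGF-beta: Itgae, Itga4, Itgb1, Itgb7, Itgav, Itgb8, Itgal, Itgb2, Itga6 and Itgb3. They were taken by name from the 49212 genes of the count tables, a choice made with earlier results of these data known.

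RNA-seq was performed on CD45+CD44+YFP+CD4+CD3+ cells sorted from spleens and tumors, with 8 libraries and 2 per group. WT mice were FoxP3YFP-Cre and KO mice were Prdm1fl/flFoxP3YFP-Cre, both C57BL/6, so that every mouse carried the YFP-Cre fusion driven by Foxp3 and the KO mice also carried floxed alleles of Prdm1, which encodes Blimp1, to be deleted in cells that express Foxp3. All mice received B16.OVA melanoma cells under the skin at day 0 and NP-OVA by intraperitoneal injection, in CFA at day 0 and in IFA at day 7, and cells were taken once tumors measured up to 1.5 cm3. The groups are called WT spleen, KO spleen, WT TIL and KO TIL, where TIL stands for the cells sorted from the tumor, and ages were given only as one range for all mice of the study. Whether the 2 libraries of a group came from separate mice is not stated, so the p-values measure the spread between libraries, which may be technical.

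An integrin is a pair of one alpha and one beta chain, and the pairing sets which ligand is bound. Itgae and Itgb7 encode CD103 (alpha-E beta-7), which binds E-cadherin on epithelial cells, and Itga4 pairs with Itgb7 to form the gut homing receptor of MAdCAM-1 or with Itgb1 to form VLA-4, the receptor of VCAM-1. Itga6 pairs with Itgb1 as a laminin receptor, and Itgal with Itgb2 forms LFA-1, which binds ICAM-1 and holds T-cells to antigen-presenting cells. Itgav pairs with Itgb1, Itgb3 or Itgb8, and these pairs bind the latency peptide of TGF-beta. In Treg cells, latent TGF-beta is displayed on the surface by GARP, the product of Lrrc32, and the alpha-v beta-8 integrin frees its active form.

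The promoters of 3 chains that share partners are shown first, because Itga4 can pair with the product of Itgb7 or of Itgb1. Between the TIL groups Itgb7 lay lower in KO, whereas Itga4 and Itgb1 both lay higher, as described further on. Each sequence holds the 250 bases before the RefSeq start of the gene (GRCm38.p6), 5′ to 3′ on the strand of the gene, with motif matches in capitals. Itgb7 is read from the minus strand at chr15:102231936-102232185, Itga4 from the plus strand at chr2:79255176-79255425 and Itgb1 from the plus strand at chr8:128685404-128685653.
Itgb7: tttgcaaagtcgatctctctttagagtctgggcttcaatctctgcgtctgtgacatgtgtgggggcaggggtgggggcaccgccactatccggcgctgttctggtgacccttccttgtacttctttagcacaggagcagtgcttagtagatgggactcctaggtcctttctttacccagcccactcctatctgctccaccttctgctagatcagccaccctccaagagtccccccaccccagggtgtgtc
Itga4: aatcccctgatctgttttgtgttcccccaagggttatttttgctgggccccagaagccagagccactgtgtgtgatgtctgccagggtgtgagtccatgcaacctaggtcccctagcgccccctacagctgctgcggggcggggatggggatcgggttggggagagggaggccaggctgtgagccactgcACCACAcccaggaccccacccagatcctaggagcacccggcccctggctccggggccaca
Itgb1: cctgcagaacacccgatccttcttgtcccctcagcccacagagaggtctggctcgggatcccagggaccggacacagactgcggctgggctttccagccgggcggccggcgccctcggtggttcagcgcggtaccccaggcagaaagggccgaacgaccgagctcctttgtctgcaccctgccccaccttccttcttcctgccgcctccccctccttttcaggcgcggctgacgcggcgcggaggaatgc
The promoters of Itga4, Itgav, Itgb1, Itgb7 and Itgb8, the 5 of the 10 genes with a matched entry, were searched on both strands for 4 motifs, which do not contain one another. They were the Blimp1 core AGNGAAAG, the Runx core TGTGGT, the forkhead core TGTTTAC and the Smad palindrome GTCTAGAC. The capitals in the Itga4 promoter mark a Runx core on the opposite strand, the 1 match found. A Runx core lay in 14.0% of all 32851 promoters of that length, a Blimp1 core in 7.30%, a forkhead core in 3.17% and the Smad palindrome in 0.167%. The Itgb7 promoter had a GC content of 56% with 5 CpG pairs, against 68% with 21 CpG pairs for Itgb1, and the median over all promoters was 52.4%.

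In the genome (GRCm38), Itgae lies at chr11:73090583-73147446 on the plus strand and Itgb7 lies at chr15:102215995-102231935 on the minus strand. Itgb8 lies at chr12:119158022-119238802 on the minus strand and Itgav at chr2:83724397-83806916 on the plus strand. Their merged exon lengths run from 2743 nt for Itgb7 to 13978 nt for Itga4. The exons of Itga4 share 1124 nt with Cerkl and those of Itgav share 634 nt with Gm13684, both on the opposite strand, and reads there cannot be assigned because the strand setting of the counting is not stated. Cerkl held 77 to 219 counts per library and Gm13684 held 81 to 467.

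Each library held between 27834676 and 43903859 counts assigned to genes. All 10 integrin genes had counts in all 8 libraries and passed the expression filter in every comparison. Levels are given as CPM, counts scaled to the library total after TMM adjustment between libraries. Some features of the libraries bear on the values. First, WT spleen replicate 2 stood apart from replicate 1 in a way that followed exon length, with a median log2 ratio of 0.66 over the 2717 genes with the shortest exons and -0.44 over the 3737 genes with the longest, whereas the medians of the other groups stayed between -0.20 and 0.22. The same 2 libraries also differed in the integrins, of which 9 were lower in WT spleen replicate 2 than in replicate 1, by -0.64 to -1.64 on the log2 scale, Itga6 being the exception at 0.13.

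Second, the KO TIL libraries held less of the transcripts that define the sorted cells. Cd4 was at 148 and 66.2 CPM in KO TIL against 807 and 1086 CPM in WT TIL, and Foxp3 was at 10.2 and 2.99 CPM against 25.5 and 60.4 CPM. The 6 markers of CD4+ Treg cells, all of them lower in KO TIL than in WT TIL without overlap, summed to 890 and 1429.8 CPM in KO TIL, 6939.95 and 9741 CPM in WT TIL and 2308 to 2823 CPM in spleen. The CD8 markers Cd8a and Cd8b1, both detected, summed to 406 and 2220.2 CPM in KO TIL, 148 and 48.2 CPM in WT TIL and at most 30.7 CPM in spleen. The 7 macrophage markers, all detected, summed to 5207 and 878 CPM in KO TIL, 1596 and 411 CPM in WT TIL and 290.1 to 2079.7 CPM in spleen, with WT spleen replicate 2 the highest of the spleen libraries. The 6 dendritic markers summed to 2535 and 414 CPM in KO TIL and 332 and 96.8 CPM in WT TIL, most of it H2-Aa. Of the 6, 4 were higher and 1 lower in KO TIL without overlap. The 5 neutrophil markers summed to 397 and 191 CPM in KO TIL and 91.8 and 11.3 CPM in WT TIL. The 4 NK markers, mostly Tyrobp, overlapped at 769 and 135 CPM against 167 and 40.9 CPM. The 6 melanoma markers summed to 829.6 to 3199 CPM in TIL and 3.69 to 6.74 CPM in spleen. In bulk RNA, fewer cells of a type and less RNA per cell cannot be told apart.

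Lastly, Prdm1 itself was at 54.0 and 21.0 CPM in WT spleen, 40.6 and 53.4 CPM in KO spleen, 108 and 192 CPM in WT TIL and 90.7 and 75.1 CPM in KO TIL. These counts cover all exons of the gene, including those outside the floxed part, so they do not check the deletion. KO and WT are used as the labels give them.

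**Figure D1:**
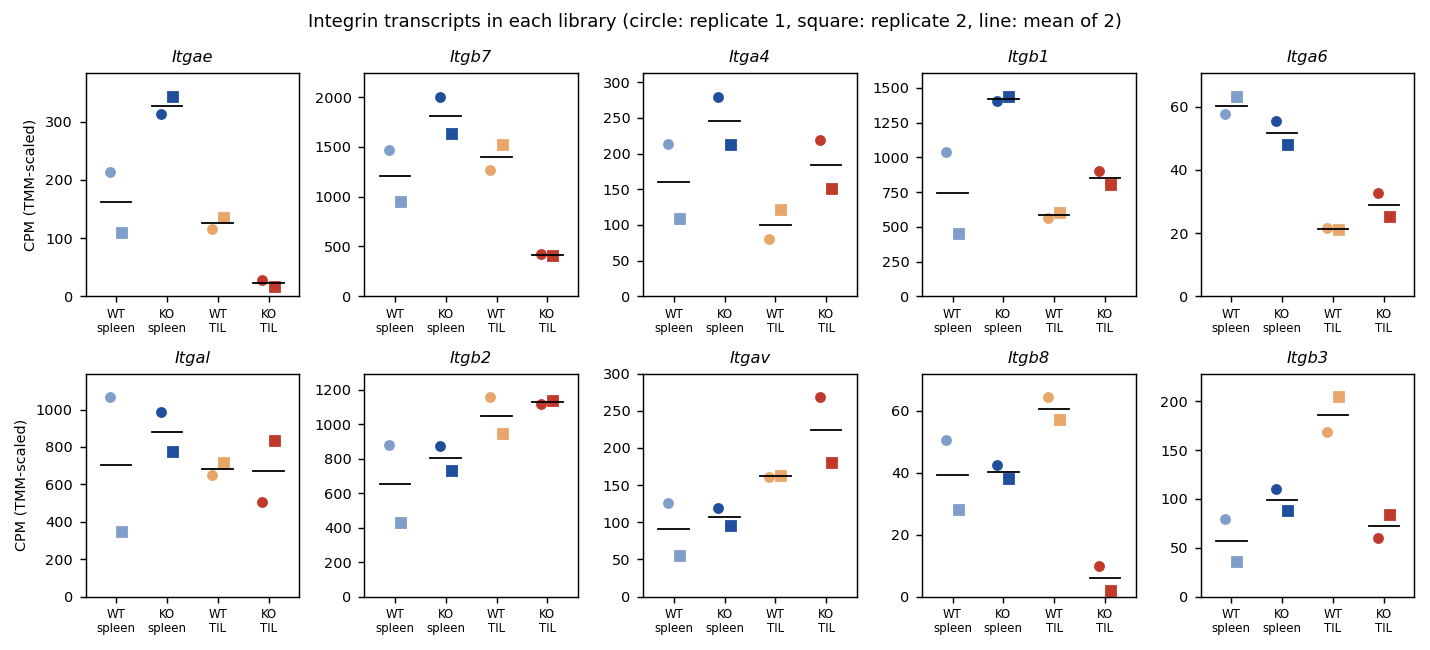
Level of each of the 10 integrin transcripts in CPM (TMM-scaled, linear axis from 0) in the 4 groups; circles are replicate 1, squares replicate 2 and lines the mean of 2 libraries. Itgae, Itgb7 and Itgb8 sit lowest in both KO TIL libraries, and WT spleen replicate 2 lies below replicate 1 for every gene but Itga6.

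Per kilobase of exon, which allows genes to be compared, Itgb7 was the most abundant of the 10 chains in WT TIL eTreg cells, at 508 ± 65.7 CPM per kb (SD, n = 2). Itgb2 followed at 344 ± 48.9 CPM per kb, then Itgb1 at 143 ± 6.22 and Itgal at 104 ± 6.73 CPM per kb. Below these 4 chains the level dropped to 31.6 ± 4.20 CPM per kb for Itgb3 and 27.4 ± 2.79 for Itgae, which did not differ beyond their spread, and the lowest were Itgb8 at 5.48 ± 0.476 and Itga6 at 2.37 ± 0.0613 CPM per kb. The same 4 chains led in every group. In KO TIL the order among them was turned, with Itgb2 at 369 ± 4.52, Itgb1 at 209 ± 18.3 and Itgb7 at 151 ± 6.47 CPM per kb, and Itgb8 was last at 0.529 ± 0.509 CPM per kb. In WT spleen the neighbours Itgb2 and Itgb1 (214 ± 104 and 182 ± 102 CPM per kb) and the chains from Itga4 down to Itgav overlapped within their spread.

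CD103 was the integrin whose alpha and beta transcripts both passed the test between the KO groups. Itgae, its alpha chain, was at 214 and 109 CPM in WT spleen, 312 and 342 CPM in KO spleen, 116 and 134 CPM in WT TIL and 27.5 and 16.4 CPM in KO TIL. The 2 KO TIL libraries were the lowest and the 2 KO spleen libraries the highest of the 8, with no overlap with any other group. Itgb7, the beta chain, followed the same course at 1473 and 945 CPM in WT spleen, 1999.8 and 1630.3 CPM in KO spleen, 1266 and 1521 CPM in WT TIL and 425 and 400.4 CPM in KO TIL. Here too KO TIL lay below and KO spleen above all other libraries.

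Between KO TIL and KO spleen, Itgae fell by 3.87 on the log2 scale (SE 0.37), with an adjusted p of 0.0374 by the quasi-likelihood test of edgeR, corrected after Benjamini and Hochberg. SE is the standard error of the fitted log2 fold change. Itgb7 fell in the same comparison by 2.12 on the log2 scale (SE 0.26, edgeR adjusted p = 0.0485). These were the 2 of 10 integrin genes past the threshold, and 1.35% of the 16933 genes tested passed it. The threshold asked for an adjusted p below 0.05 and more than 1 log2 unit of change in either direction. DESeq2's Wald test gave an adjusted p of 4.05e-16 for Itgae and 8.91e-08 for Itgb7, and it called 4 of the 10 genes, against 19.7% of all genes it tested. Both calls of edgeR were lost without either KO spleen library, where the log2 fold changes were -3.93 and -3.78 for Itgae (edgeR adjusted p = 0.130 and 0.112) and -1.95 and -2.23 for Itgb7 (edgeR adjusted p = 0.233 and 0.173), and edgeR called 0 genes of any kind. In the same comparison Cd4 had a log2 fold change of -3.11, and its part in these results was not tested.

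Between KO and WT within TIL, Itgae had a log2 fold change of -2.52 (SE 0.37) and Itgb7 one of -1.76 (SE 0.32), and neither passed edgeR's test (adjusted p = 0.177 and 0.221). Both KO TIL libraries lay below both WT TIL libraries for each. In this comparison edgeR called 0% of the 15935 genes tested, with 1573 genes and 4 of the integrin genes at an unadjusted p under 0.05, whereas DESeq2 called 4.68% of the genes it tested. DESeq2 called 3 of the integrin genes, Itgae (adjusted p = 5.38e-05), Itgb7 (adjusted p = 0.00192) and Itgb8 (adjusted p = 0.000848), all lower in KO TIL. Groups without overlap were found for 8 of the 10 genes, 4 in each direction, against 37.4% of all genes tested.

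Within spleen the order was the opposite. Itgae had a log2 fold change of 1.02 (SE 0.42) in KO over WT and Itgb7 one of 0.58 (SE 0.39), with an edgeR adjusted p of 0.878 for both. Here edgeR called 0% of the 16583 genes tested, with 489 genes and 1 integrin gene at an unadjusted p under 0.05, and DESeq2 called 0.416% of the genes it tested and 0 of the integrin genes. Without WT spleen replicate 2 the values were 0.61 for Itgae and 0.30 for Itgb7. Without WT spleen replicate 1 Itgae was at 1.65, with 6 of the 10 integrin genes and 3972 genes in all then called. Of the 10 genes, 4 were higher and 1 lower in KO spleen without overlap, against 32.1% of all genes in either direction.

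**Figure D2:**
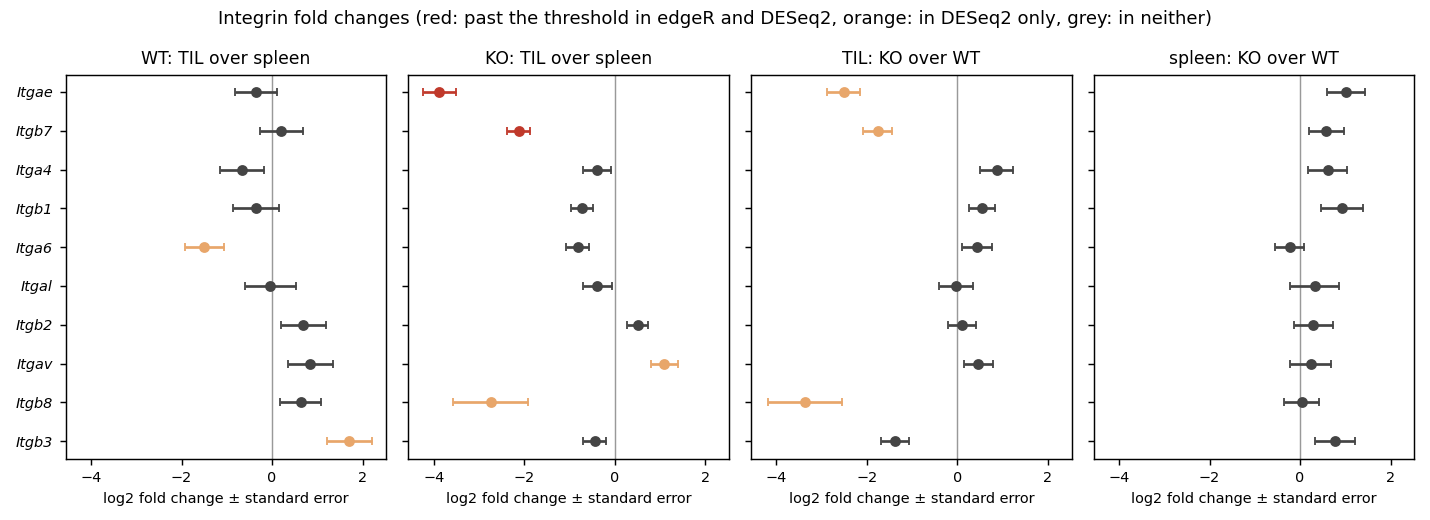
Log2 fold change of each integrin gene with its standard error, as fitted by edgeR, in 4 comparisons of 2 against 2 libraries. Red points passed the threshold in edgeR and DESeq2, orange points in DESeq2 alone and grey points in neither; Itgae and Itgb7 in KO TIL over KO spleen are the red points, at -3.87 and -2.12.

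The alpha-4 chain, which can pair with Itgb7 or Itgb1, did not share the course of Itgb7. Itga4 was at 213 and 108 CPM in WT spleen, 279 and 212 CPM in KO spleen, 79.6 and 121 CPM in WT TIL and 219 and 150.2 CPM in KO TIL. The KO TIL libraries thus lay above both WT TIL libraries, a log2 fold change of 0.87 (SE 0.36, edgeR adjusted p = 0.534). Itgb1, which pairs with many alpha chains, was at 1039 and 450.4 CPM in WT spleen, 1404 and 1433 CPM in KO spleen, 564 and 600.2 CPM in WT TIL and 904 and 798 CPM in KO TIL. Its KO libraries lay above its WT libraries in both tissues, with log2 fold changes of 0.54 in TIL (adjusted p = 0.650) and 0.93 in spleen (adjusted p = 0.878), neither past edgeR's test.

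Itga6, a laminin receptor chain, was at 57.7 and 63.1 CPM in WT spleen, 55.5 and 48.0 CPM in KO spleen, 21.8 and 21.0 CPM in WT TIL and 32.8 and 25.0 CPM in KO TIL. It was lower in the TIL libraries of either genotype without overlap. In the WT comparison of TIL with spleen its log2 fold change was -1.499 with an SE of 0.43, which edgeR did not call (adjusted p = 0.0720) and DESeq2 did (-1.44, adjusted p = 0.0314). Without WT spleen replicate 2 the value was -1.39 (edgeR adjusted p = 0.122). In the KO comparison its log2 fold change was -0.82 (edgeR adjusted p = 0.115).

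The transcripts of LFA-1 passed neither tool's threshold in any comparison of 4 libraries. Itgal was at 1065 and 343 CPM in WT spleen, 987 and 773 CPM in KO spleen, 650.3 and 713 CPM in WT TIL and 505 and 833 CPM in KO TIL, and its groups overlapped in all 4 comparisons. The KO TIL library with the higher Itgal, replicate 2, was the one with the higher CD8 marker sum. In WT TIL the library with the higher Itgal, replicate 2, had the lower CD8 marker sum (148 and 48.2 CPM in replicates 1 and 2). The part of other cells in the Itgal level was not tested. Itgb2 was at 877 and 427 CPM in WT spleen, 874 and 728 CPM in KO spleen, 1155 and 944 CPM in WT TIL and 1116 and 1135 CPM in KO TIL. The TIL libraries lay above the spleen libraries for Itgb2, with log2 fold changes of 0.69 in WT (adjusted p = 0.482) and 0.51 in KO (adjusted p = 0.223) that did not pass edgeR's test.

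The alpha-v chain and its partners divided into transcripts with opposite differences. Itgav was at 126 and 55.1 CPM in WT spleen, 119 and 94.4 CPM in KO spleen, 161 and 162 CPM in WT TIL and 268 and 179.8 CPM in KO TIL. It was higher in TIL than in spleen without overlap for both genotypes, with log2 fold changes of 0.85 in WT (adjusted p = 0.369) and 1.09 in KO (adjusted p = 0.0954) that edgeR did not call, and DESeq2 called the latter (1.13, adjusted p = 0.0405). The KO TIL library with the higher Itgav, replicate 1, was the one with the higher macrophage and melanoma marker sums. In WT TIL the macrophage marker sums were 1596 and 411 CPM, with Itgav nearly equal in the 2 libraries. The part of other cells in the Itgav level was not tested.

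Itgb8, whose product gives Treg cells the TGF-beta activating pair, was at 50.5 and 28.1 CPM in WT spleen, 42.6 and 38.0 CPM in KO spleen, 64.4 and 56.9 CPM in WT TIL and 9.84 and 1.87 CPM in KO TIL. WT TIL held the highest and KO TIL by far the lowest levels, and the 2 KO TIL libraries differed from each other by -2.40 on the log2 scale. The log2 fold change of KO over WT in TIL was -3.37 (SE 0.81, edgeR adjusted p = 0.288). It was -5.02 without KO TIL replicate 1 and -2.64 without KO TIL replicate 2. Against KO spleen, KO TIL gave -2.74 (SE 0.83), which edgeR did not call (adjusted p = 0.110) and DESeq2 did (-2.72, adjusted p = 0.00375). In spleen the genotypes differed by 0.03 with overlapping libraries.

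Itgb3 was at 78.9 and 35.8 CPM in WT spleen, 110.3 and 87.3 CPM in KO spleen, 169 and 204 CPM in WT TIL and 60.1 and 83.8 CPM in KO TIL. The WT TIL libraries lay above all 6 others. In WT cells the log2 fold change of TIL over spleen was 1.71 (SE 0.50), which edgeR did not call (adjusted p = 0.0764) and DESeq2 did (1.76, adjusted p = 0.0152). It was 1.28 without WT spleen replicate 2 and 2.40 without WT spleen replicate 1, where edgeR called it (adjusted p = 0.0297). Within TIL, KO over WT gave -1.38 (SE 0.32), which passed neither edgeR's test (adjusted p = 0.268) nor DESeq2's (adjusted p = 0.0548). Itgb3 also pairs with Itga2b on platelets, and Itga2b was at 0 to 1.85 CPM in all libraries. The 7 platelet markers, of which 2 were at 0 in TIL, summed to 1.50 to 3.57 CPM in spleen, 255 and 34.6 CPM in WT TIL and 172 and 54.3 CPM in KO TIL. Most of the TIL sums was Pf4, at 224 and 33.6 CPM in WT TIL and 161 and 51.7 CPM in KO TIL. Gp9, Gp1ba, Gp1bb, Gp6 and Treml1 were each at most 0.349 CPM in TIL, so the sums do not show platelets as such. The part of these markers in the Itgb3 level was not tested.

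Counted over the 10 genes, the WT comparison of TIL with spleen gave 0 calls in edgeR, with 2 genes at an unadjusted p under 0.05, where 5.97% of 16427 genes were called, and 2 calls in DESeq2, where 9.91% of the genes tested were called. In WT TIL 4 of the 10 genes were higher and 1 lower without overlap, against 52.1% of all genes in either direction. In the KO comparison 2 were higher and 6 lower without overlap, against 63.5% of all genes. The median log2 fold change of the 10 genes was 0.09 in the WT comparison and -0.58 in the KO comparison, beside -0.04 and 0.01 over all genes tested. The difference between the genotypes' tissue effects, tested as an interaction over all 8 libraries, gave 0 calls in edgeR (0% of 17870 genes), with 1399 genes and 4 of the integrin genes at an unadjusted p under 0.05. DESeq2 called 3 integrin genes, Itgae, Itgb7 and Itgb8, against 1.85% of all genes.

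The ratio of an alpha to a beta transcript within a library needs no scaling between libraries, and 8 known pairs were compared. It does not remove a difference that follows exon length, as seen between the 2 WT spleen libraries. There Itga6 to Itgb1 was at 0.0251 and 0.0633 and Itgal to Itgb2 at 0.564 and 0.373, and the part of exon length in this was not tested. The ratio of Itgav to Itgb8, per kilobase, was 2.02 to 2.94 in the 6 WT TIL and spleen libraries and 28.0 and 99.0 in KO TIL. The ratio of Itga4 to Itgb7 was 0.0284 and 0.0224 in WT spleen, 0.0274 and 0.0255 in KO spleen, 0.0123 and 0.0157 in WT TIL and 0.101 and 0.0736 in KO TIL. For both pairs the KO TIL libraries stood above all others. The ratio of Itgav to Itgb3 was likewise highest in KO TIL, at 2.45 and 1.18 against 0.438 to 0.874 elsewhere.

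By contrast, the ratio of Itga4 to Itgb1 kept within 0.0412 to 0.0707 over all 8 libraries and overlapped between TIL and spleen. That of Itgav to Itgb1 was 0.0460 and 0.0464 in WT spleen, 0.0321 and 0.0250 in KO spleen, 0.109 and 0.103 in WT TIL and 0.113 and 0.0855 in KO TIL. All 4 TIL libraries lay above all 4 spleen libraries, and the genotypes overlapped within TIL. The ratio of Itgae to Itgb7 was 0.0246 to 0.0550 in TIL and 0.0688 to 0.126 in spleen, again without overlap.

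Between 4 TIL and 4 spleen libraries, an exact two-sided permutation test over 70 arrangements gave p = 0.0286 for Itgav to Itgb1 (a log2 difference of 1.49), Itgae to Itgb7 (-1.17) and Itgal to Itgb2 (-0.76). That is the smallest p this design allows, and with Benjamini-Hochberg adjustment over the 8 pairs it became 0.0762 by the exact test, so that 0 of 8 pairs passed. For these 3 pairs all 4 TIL libraries lay on one side of all 4 spleen libraries, so leaving out a library could not change the sign of the log2 difference. Differences between genotypes within TIL, at 4.26 for Itgav to Itgb8, 2.63 for Itga4 to Itgb7 and 1.83 for Itgav to Itgb3 on the log2 scale, rest on 2 against 2 libraries, for which an exact test cannot go below 0.333.

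**Figure D3:**
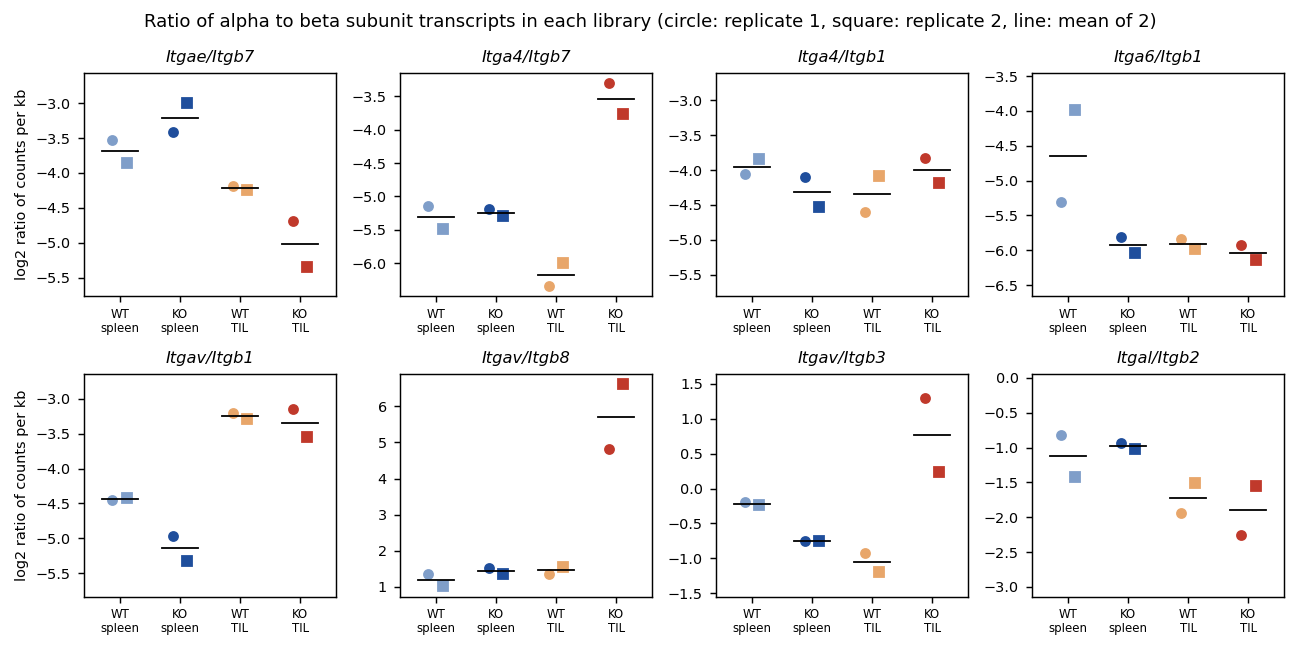
Log2 ratio of the alpha to the beta transcript per kilobase of exon in each library for 8 pairs (circles replicate 1, squares replicate 2, lines the mean of 2 libraries, each panel with its own axis range). The KO TIL libraries lie above all others for Itgav/Itgb8, Itga4/Itgb7 and Itgav/Itgb3, and the TIL libraries of both genotypes lie above the spleen libraries for Itgav/Itgb1.

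The KO TIL values also depended on what they were set against. Per 100 counts of the CD3 chains Cd3d, Cd3e and Cd3g, Itgae was at 4.20 and 3.76 in WT TIL and 3.52 and 0.553 in KO TIL, and Itgb8 was at 2.32 and 1.59 in WT TIL and 1.26 and 0.0628 in KO TIL. Both stayed lower in KO TIL without overlap, whereas Itgb7, Itgb3 and Itgb2 overlapped and 5 of the 10 genes, Itga4, Itgb1, Itgav, Itgal and Itga6, were higher in KO TIL. The CD3 chains themselves summed to 782 and 2977 CPM in KO TIL and 2768 and 3574 CPM in WT TIL, and the higher values rested largely on KO TIL replicate 1. Itga6, for example, was at 4.19 and 0.842 per 100 CD3 counts in KO TIL and 0.786 and 0.587 in WT TIL, and Itgav was at 34.3 and 6.04 in KO TIL and 5.83 and 4.55 in WT TIL.

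Per 100 Cd4 counts, a scale chosen once the Cd4 levels were known, Itgae was at 14.4 and 12.4 in WT TIL and 18.6 and 24.9 in KO TIL, and Itgb7 was at 157 and 140.1 in WT TIL and 288 and 605 in KO TIL. On this scale 9 of the 10 genes were higher in KO TIL without overlap, and Itgb8 overlapped, at 7.98 and 5.24 in WT TIL and 6.66 and 2.82 in KO TIL. Cd4 itself was at 807 and 1086 CPM in WT TIL and 148 and 66.2 CPM in KO TIL, so any gene that fell by less gains on this scale. For the CD3, Cd4 and Foxp3 scales the share over all genes was not computed. Per Foxp3 count, 6 of the 10 genes were higher and Itgae, Itgb7, Itgb8 and Itgb3 overlapped. Itgae and Itgb7 fell by less than Cd4 between WT TIL and KO TIL, so they turned from lower per library to higher per Cd4 transcript. That turn was fixed by the choice of scale and is no separate result about these genes.

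**Figure D4:**
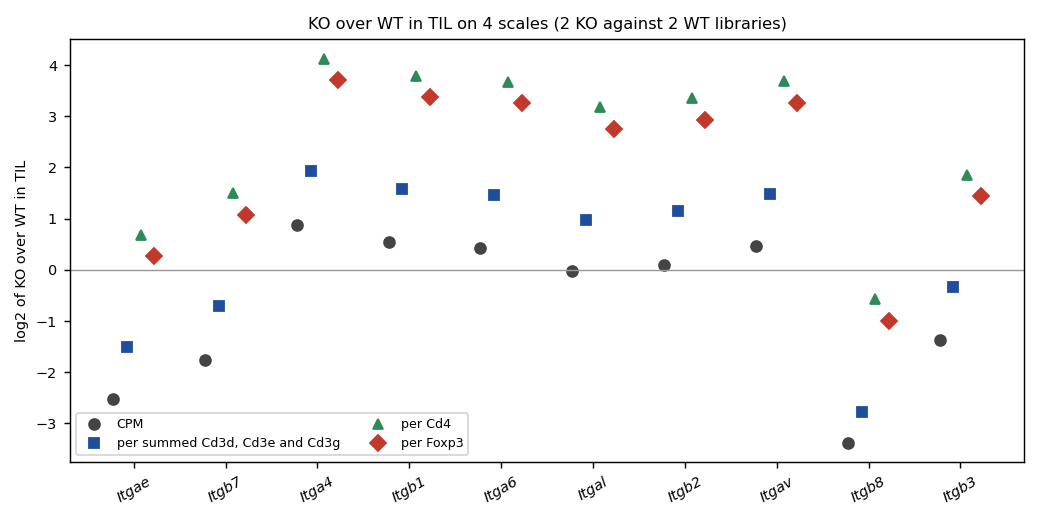
Log2 of KO over WT in TIL (2 against 2 libraries) for each integrin gene on 4 scales, the edgeR fold change on CPM and the difference of mean log2 ratios to the CD3, Cd4 or Foxp3 counts. Itgb8 lies below 0 on all 4 scales, and Itgae, Itgb7 and Itgb3 change sign between CPM and the Cd4 scale.

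The genes that supply and release TGF-beta were examined beside the alpha-v integrins, in a list of 13 of which 11 were tested in each comparison between groups. Lrrc32, which encodes GARP, was at 138 and 64.9 CPM in WT spleen, 98.1 and 105 CPM in KO spleen, 316 and 334 CPM in WT TIL and 35.4 and 8.86 CPM in KO TIL. Like Itgb8 it was highest in both WT TIL and lowest in both KO TIL libraries. Its log2 fold change of KO over WT in TIL was -3.88 (SE 0.72), which edgeR did not call (adjusted p = 0.225) and DESeq2 did (adjusted p = 6.50e-06), and it stayed lower in KO TIL without overlap per CD3, per Cd4 and per Foxp3 count. Tgfb1, the ligand itself, was at 109 to 133 CPM in spleen, 129 and 133 CPM in WT TIL and 179.9 and 123 CPM in KO TIL, and its log2 fold change of KO over WT in TIL was 0.21 with overlapping libraries.

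In the WT comparison of TIL with spleen, 5 of the 11 genes were higher in TIL by edgeR's test and 0 lower, where 5.97% of all genes were called. The median log2 fold change over the 11 was 1.89, beside -0.04 over all genes tested. The 5 genes called are named next. They were Thbs1, which encodes the latency peptide binder thrombospondin-1 (8.33, edgeR adjusted p = 0.00416), Mmp9 (2.12, edgeR adjusted p = 0.0269) and Mmp14 (2.45, edgeR adjusted p = 0.0431), which encode matrix proteases, Furin (1.89, edgeR adjusted p = 0.0419), which cleaves the TGF-beta precursor, and Ltbp3 (3.80, edgeR adjusted p = 0.0496), which encodes a latent TGF-beta binding protein. Thbs1 is also abundant in macrophages and platelets. It was at 285 and 23.5 CPM in WT TIL and 2249 and 137 CPM in KO TIL, in each TIL group higher in the library with the higher macrophage and melanoma marker sums. The same held for Mmp14 (36.5 and 21.9 CPM in WT TIL, 195 and 27.0 CPM in KO TIL) and Furin (62.2 and 42.5 CPM, 149 and 34.4 CPM). Mmp9 and Ltbp3 were nearly equal in the 2 WT TIL libraries, at 70.4 and 70.4 CPM and at 2.26 and 2.19 CPM. In KO TIL they were at 18.1 and 9.65 CPM and at 16.2 and 5.20 CPM. There both were higher in replicate 1, the library with the higher macrophage and melanoma marker sums. The part of other cells in these levels was not tested. All 5 calls were lost without WT spleen replicate 2, where the log2 fold changes lay between 1.80 for Mmp9 and 7.91 for Thbs1 (edgeR adjusted p from 0.0698 for Mmp9 to 0.169 for Ltbp3). Without WT TIL replicate 1 those of Mmp9, Mmp14, Furin and Ltbp3 were lost, without WT TIL replicate 2 those of Mmp9, Furin and Ltbp3, and without WT spleen replicate 1 those of Thbs1 and Furin. With edgeR fitted on all 8 libraries the calls of Mmp14, Furin and Ltbp3 were lost (edgeR adjusted p = 0.163, 0.142 and 0.0552), and a threshold of 2 log2 units left out Furin. In the KO comparison edgeR called 0 of the 11 genes, with 6 at an unadjusted p under 0.05, where 1.35% of all genes were called, and DESeq2 called 5 higher and 1 lower, where 19.7% of all genes were called.

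Nrros, which displays latent TGF-beta on myeloid cells, was at 165 and 95.5 CPM in WT TIL and 378 and 86.8 CPM in KO TIL. Of the 13 receptor and Smad genes, 12 were tested in each comparison between groups and edgeR called 0. At an unadjusted p under 0.05 there were 4, 4, 3 and 0 of them in the WT, KO, TIL and spleen comparisons, and DESeq2 called 3, 4, 1 and 0, against 9.91%, 19.7%, 4.68% and 0.416% of all genes. Tgfbr1 was at 57.1 and 52.5 CPM in WT TIL and 146 and 27.1 CPM in KO TIL, and Tgfbr2 was at 213 and 209 CPM in WT TIL and 250.1 and 289 CPM in KO TIL. Smad7, a target of TGF-beta signaling that dampens it, was at 17.0 and 19.4 CPM in WT TIL and 27.8 and 38.8 CPM in KO TIL, and its log2 fold change of 0.87 did not pass edgeR's test (adjusted p = 0.508).

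**Figure D5:**
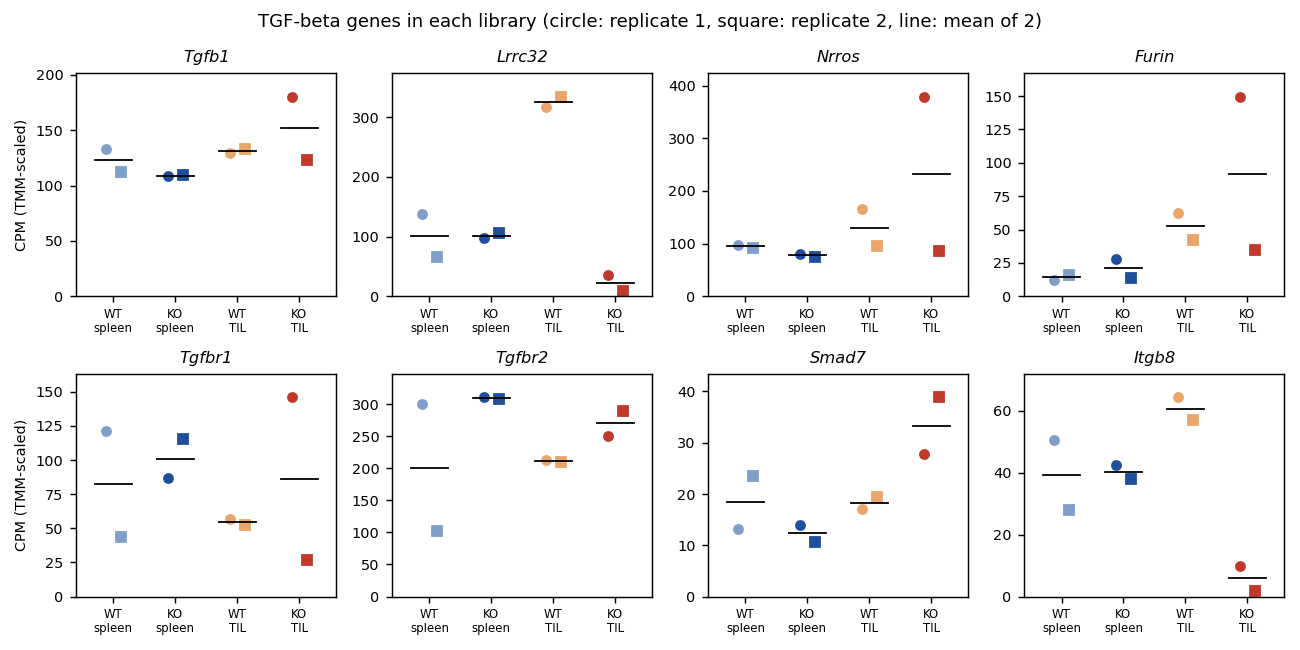
Level of 7 genes of TGF-beta supply and signaling, with Itgb8, in CPM (TMM-scaled, linear axis from 0) in the 4 groups; circles are replicate 1, squares replicate 2 and lines the mean of 2 libraries. Lrrc32 and Itgb8 are highest in WT TIL and lowest in KO TIL, while Nrros, Furin and Tgfbr1 are highest in KO TIL replicate 1.

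Of 16 other integrin genes, 13 were tested in the WT comparison, where edgeR called Itgam higher and Itgad lower in TIL and 5.97% of all genes. Itgam, the alpha chain of Mac-1 on myeloid and NK cells, was at 1.25 to 1.77 CPM in WT spleen and 121 and 13.5 CPM in WT TIL, a log2 fold change of 5.48 (SE 0.95, edgeR adjusted p = 0.00902). It reached 758 and 90.8 CPM in KO TIL, and Itgax, which encodes CD11c, reached 137 and 55.0 CPM there. Itgam was higher in the TIL library of each genotype with the higher macrophage marker sum, and its call was lost without either WT spleen library (edgeR adjusted p = 0.0667 and 0.157) and with edgeR fitted on all 8 libraries (5.47, edgeR adjusted p = 0.0576).

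Itgad, which pairs with Itgb2, was at 37.5 and 71.3 CPM in WT spleen, 32.2 and 79.7 CPM in KO spleen and 0.742 to 1.87 CPM in TIL. It was lower in TIL in both comparisons, with log2 fold changes of -5.93 in WT (edgeR adjusted p = 0.00123) and -4.97 in KO (edgeR adjusted p = 0.0471). In each spleen group Itgad was higher in the library with the higher macrophage marker sum (435 and 2079.7 CPM in WT, 290.1 and 771 CPM in KO). The part of that in its level was not tested. Itga7, which pairs with Itgb1 as a laminin receptor, fell in KO TIL against KO spleen (-3.92, edgeR adjusted p = 0.0374), at 20.1 and 17.4 CPM in KO spleen and 1.43 and 1.01 CPM in KO TIL. The KO calls of both were lost without either KO spleen library (edgeR adjusted p from 0.113 to 0.148), and the WT call of Itgad held whichever library was left out. The collagen receptor chains took opposite courses, Itga1 being at 8.65 and 1.42 CPM in WT TIL and 19.2 and 21.0 CPM in KO TIL and Itga2 at 5.35 and 9.82 CPM against 2.79 and 1.91 CPM, and neither passed edgeR's test between the genotypes (adjusted p = 0.546 and 0.433). Itga5 was at 22.9 and 7.66 CPM in WT TIL and 125 and 13.0 CPM in KO TIL, and Itgb5 was at 1.69 and 2.26 CPM against 24.8 and 2.06 CPM, so that KO TIL replicate 1 alone stood out among the TIL libraries for each.

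Among 28 genes that link integrins to the cytoskeleton or switch them on, 27 were tested in the WT comparison and edgeR called 3 higher and 1 lower in TIL, against 5.97% of all genes. Fermt2, Parva and Tln2, whose products are adaptors found mainly in adherent cells, had no counts in either WT spleen library. They were at least 79.2-fold, 49.4-fold and 7.61-fold higher in WT TIL, taking 3 counts in a spleen library as the floor. In WT TIL and in KO TIL each of them was higher in the library with the higher macrophage and melanoma marker sums. The part of other cells in their levels was not tested. Rasgrp2, which encodes the exchange factor that activates Rap1 upstream of LFA-1, fell from 46.1 and 74.9 CPM in WT spleen to 7.76 and 11.3 CPM in WT TIL, a log2 fold change of -2.67 (SE 0.50, edgeR adjusted p = 0.0127). Its call was lost without WT spleen replicate 2 (-2.23, edgeR adjusted p = 0.0681) and without WT TIL replicate 1 or 2 (-2.41 and -2.93, edgeR adjusted p = 0.215 and 0.0503). The adaptors of blood cells did not pass in that comparison, Tln1 (talin) with a log2 fold change of 0.65 and Fermt3 (kindlin-3) with one of 0.66. Between KO and WT in TIL, edgeR and DESeq2 called 0 of the 27 genes tested, with 1 at an unadjusted p under 0.05 in edgeR.

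Finally, for each integrin gene the transcripts with the most similar pattern were listed by Pearson's r of log2 CPM over the 8 libraries, which share 2 tissues and 2 genotypes, so that any gene that differs between the groups in the same way scores high. For Itgae these were B4galnt4, Ccr4 and Slc35b3 (r of 0.99), Ccr4 being a chemokine receptor of Treg and skin-homing T-cells, at 327 and 309 CPM in KO spleen and 29.3 and 14.3 CPM in KO TIL. B4galnt4 and Slc35b3 were also the closest to Itgb7, followed by Nt5e (CD73), with r of 0.98. For Itgb8 the closest gene was Cd4 (r of 0.97), and for Itgb3 it was Sla (r of 0.99), an adaptor that dampens T-cell receptor signaling. Itga4 was closest to Usp32, Rasa3 and Plxnc1 (r of 0.94 to 0.96), and Itgav to Oas3, Cars and Immt (r of 0.98 to 0.99). Itgb1 was closest to Gm16793, Gfod2 and Clip1 (r of 0.97 to 0.99), Itgal to Bud13, Sbf1 and Itpr3 (r of 0.98 to 0.99), Itgb2 to Kpna1, Acsl4 and Senp1 and Itga6 to Gm37569, Txnl4b and Gm37510 (r of 0.99 for both). Gm16793 and Gm37569 lay near the floor, at no more than 0.659 and 1.03 CPM in any library.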

How the data were processed

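RNA was sequenced from eTreg cells in 8 libraries (total RNA, rRNA removed, random hexamer priming). Per the labels and the study's methods, the authors trimmed reads with Trimmomatic 0.36, aligned them to GRCm38 with STAR 2.5.2b and counted unique reads within exons with featureCounts of Subread 1.5.2. The raw counts per gene they deposited were used, with 0 rows without a gene name. Their table of normalized counts was not used here. Totals of 27834676 to 43903859 counts set the counting precision, and intervals and floors (3 counts) cover counting error only.

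Samples were grouped by genotype and tissue. Each comparison was fitted on its 4 libraries with edgeR 4.0.16 (quasi-likelihood test, TMM, filterByExpr, Benjamini-Hochberg, R 4.3.3), the interaction on 8. Standard errors follow from the fold change and its F statistic. DESeq2 1.42.0, its size factors in edgeR, other filters and thresholds, fits on 8 libraries, a replicate block, ratios without exon length or per Cd4 or Foxp3, and leaving out each library were alternatives. Levels per kb used merged GENCODE exons. The fits were tested on simulated data. Promoters came from RefSeq, where 5 of 10 genes matched.

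Genes named are the 10 integrins, a fixed choice of 17 related genes, up to 3 called genes per list and direction (with 5 named for the TGF-beta list, 2 of them, Ltbp3 and Mmp14, after their values were seen), marker genes and the most similar transcripts. The members and lists were chosen with earlier results of these data known. Libraries of one group differed beyond counting noise, with chi-square over its degrees of freedom at 37.2 to 344.4, and each was counted separately.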

Additional observations from a re-analysis of the deposited data

Results flagged for a closer look

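KO against WT went one way in TIL and the other way in spleen, with no overlap of the libraries in either tissue, for Itgae, Itgb7, Itgb3 and Itga6. Over all genes tested, the groups lay without overlap for 37.4% in TIL and 32.1% in spleen. The share of all genes that did so in opposite directions was not computed, so the count of 4 cannot be judged against it. Itgae, the CD103 alpha chain, was lower in KO TIL and higher in KO spleen, and the log2 difference between the 2 effects was -3.53 (edgeR adjusted p = 0.177, DESeq2 adjusted p = 0.000200). For Itgb7, its beta chain, the difference was -2.34 (edgeR adjusted p = 0.255, DESeq2 adjusted p = 0.00789). For Itgb3 it was -2.16 (edgeR adjusted p = 0.362). Itga6 took the opposite course, higher in KO TIL and lower in KO spleen, with a difference of 0.66 (edgeR adjusted p = 0.799). The differences of Itgae and Itgb7 passed the test in DESeq2 and none of the 4 passed it in edgeR. On the Cd4 scale the KO libraries in TIL were higher for all 4 genes, but any gene that fell by less than Cd4 gains on that scale.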

How the results depend on the processing

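Counts of called genes depended on the tool and on single libraries. DESeq2 called 1805 genes and 2 integrins in the WT comparison of TIL with spleen, 3813 and 4 in the KO one, 761 and 3 for KO against WT in TIL, 75 genes in spleen and 307 and 3 for the interaction. Without a filter on low counts edgeR called 1922 and 1, 3183 and 4, 1072 and 4, 167 genes in spleen, and 752 and 4. Fitted on 8 libraries, edgeR called 1 integrin in WT, 1743 genes in KO, and 135 genes and 1 integrin in TIL. DESeq2 size factors left 1 integrin in KO. The replicate block gave 1 integrin in WT (Itgb3, edgeR adjusted p = 0.0400), 1 in KO (Itgae at 0.0452, Itgb7 lost at 0.0744, and Itga7 lost at 0.0529), 728 genes and 3 integrins in TIL (Itgae at 0.0121, Itgb7 at 0.0320, Itgb8 at 0.0118), and 101 genes in spleen. Replicate numbers are shared by the labels only, and the correlations of same-numbered libraries (-0.258 to 0.286) do not pair them.

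Leaving out 1 library left its arm with a lone sample, assumed to vary like the others. The WT count then ranged from 213 genes and 0 integrins (without WT spleen replicate 2) to 1401 and 3 (without WT spleen replicate 1). The KO count ranged from 0 and 0 (without either KO spleen library) to 4958 and 4 (without KO TIL replicate 2), the TIL count stayed at 0, and the spleen count ranged from 21 genes and 0 integrins (without KO spleen replicate 2) to 3972 and 6 (without WT spleen replicate 1).

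Some small log2 fold changes changed sign. In WT these were Itgae (-0.73 to 0.22), Itgb1 (-0.79 to 0.39), Itgb7 (-0.037 to 0.58) and Itgal (-0.60 to 1.01 without single libraries, 0.011 in DESeq2, 0.0049 without the filter, 0.17 with the block). In TIL they were Itgal (-0.45 to 0.29), Itgb2 (-0.051 to 0.24) and Tgfb1 (-0.090 to 0.44). In spleen they were Itgav (-0.24 to 1.01), Itgb8 (-0.32 to 0.58), Itgal (-0.27 to 1.42) and Itgb2 (-0.13 to 0.96). For the interaction they were Itga4 (-0.32 to 0.66), Itgb1 (-1.11 to 0.094), Itgav (-0.49 to 0.70), Itgal (-1.39 to 0.25) and Itgb2 (-0.81 to 0.23). Among ratios, TIL minus spleen changed sign for Itga4 to Itgb7 (-0.090 to 0.92), Itga4 to Itgb1 (-0.17 to 0.11) and Itgav to Itgb3 (-0.14 to 0.69), and 0 of 8 pairs passed under any alternative. The causes were not tested. Itgae, Itgb7, Itgb8 and Itgb3 kept their sign in TIL under every alternative to the count tests and lost it only on the Cd4 or Foxp3 scale, Itgb8 excepted. The scales per Cd4 and Foxp3 were added after seeing the data. With 2 libraries a group, differences under the spread of WT spleen could not be resolved.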
